A study of Mus musculus with 8 samples.

Results

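Genes for making, remodelling, storing and releasing fatty acids were followed in macrophages of 3 genotypes. The 43 genes were taken by symbol from the 24421 symbols in every count file: enzymes of fatty acid synthesis, elongation, desaturation and activation, acyltransferases of phospholipids and triglycerides, lipases, droplet coat proteins and 2 genes that handle lipoprotein lipid. All 43 symbols were found, and 41 had enough counts to be tested. The 8 RNA-seq libraries came from primary mouse macrophages, all from mice on a normal diet: 3 wild-type (WT), 3 labelled LysM-DKO and 2 labelled ABCG1KO. LysM-DKO is the label of the group that the series text calls an epsin double knockout, and ABCG1KO is a knockout of the cholesterol exporter Abcg1. LysM is the older name of Lyz2, whose promoter drives Cre recombinase in myeloid cells, so a deletion driven by it is limited to that lineage. The labels do not give the tissue, age, sex or number of mice, nor whether libraries of a group came from separate mice, so p-values measure only the spread between these libraries. The series asks how epsins and ABCG1-dependent cholesterol efflux bear on lipid handling.

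Macrophages obtain fatty acids from lipoproteins and by synthesis from acetyl-CoA, then lengthen, desaturate and activate them with coenzyme A. Activated chains are built into membrane phospholipids or into triglyceride, which is stored with cholesteryl ester in droplets coated by perilipins. Lipases release the stored chains in steps, from triglyceride to diglyceride to monoglyceride. Sterol-sensing and lipid-sensing transcription factors, among them SREBP, LXR, PPAR and ChREBP, are known to act on many of these genes.

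Levels are given as CPM, the usual depth-normalised unit, in which counts are divided by the library size after scaling by TMM, a factor for differences in RNA composition. The libraries held 29567615 to 41888516 counts in genes, and 3 counts corresponded to 0.0716 to 0.101 CPM before scaling. Both ABCG1KO libraries stood apart from the other 6: 6.74% and 6.93% of their counted reads mapped to several loci against 2.65% to 3.01% elsewhere, 10.2% and 13.8% fell outside genes against 4.27% to 6.07%, and Gapdh, a glycolytic gene with many pseudogenes, was at 2.05 and 4.99 CPM against 731 to 1705 CPM. Transcripts of the Y chromosome were found in LysM-DKO 1 and in both ABCG1KO libraries, and Xist in all WT libraries and in LysM-DKO 2 and 3. In ABCG1KO against WT, genotype, sex and these library differences cannot be told apart. Abcg1 was at 60.4 and 73.4 CPM in ABCG1KO against 345 to 405 CPM in WT, a log2 fold change of -2.52 ± 0.37 (SE, n = 2 and 3, adjusted p = 0.00425 by edgeR). The epsin genes did not separate LysM-DKO in this way: Epn1 was at 155 to 183 CPM against 191 to 230 CPM in WT (log2 fold change -0.30 ± 0.13, adjusted p = 0.43), and Epn2 was at 5.67 to 13.2 CPM against 4.97 to 8.86 CPM. The counts cover whole genes, and the labels do not name the deleted exons, so they do not check this label. Lyz2 was at 6177 to 8105 CPM in LysM-DKO against 13004 to 15710 CPM in WT (log2 fold change -1.09, adjusted p = 0.21).

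The 250 bases upstream of the RefSeq start (GRCm38.p6) are shown for the 3 members that were higher in ABCG1KO than in WT and for 3 of the 9 that were lower, namely both droplet coat genes tested and the monoglyceride lipase. Capitals mark 3 motifs searched on both strands: CACGTG (an E-box), CCAAT (or ATTGG) and AGGTCA (or TGACCT, the core of nuclear receptor sites).
Lpcat2: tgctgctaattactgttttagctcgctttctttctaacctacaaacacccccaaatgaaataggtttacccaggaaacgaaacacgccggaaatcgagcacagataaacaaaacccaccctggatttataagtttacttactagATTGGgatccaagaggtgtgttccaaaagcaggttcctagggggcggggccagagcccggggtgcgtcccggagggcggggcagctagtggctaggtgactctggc
Elovl5: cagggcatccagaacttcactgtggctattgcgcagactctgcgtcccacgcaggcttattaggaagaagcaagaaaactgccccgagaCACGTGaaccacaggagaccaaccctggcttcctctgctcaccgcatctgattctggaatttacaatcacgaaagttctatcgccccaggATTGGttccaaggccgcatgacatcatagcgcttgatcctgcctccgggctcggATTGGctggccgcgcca
Pltp: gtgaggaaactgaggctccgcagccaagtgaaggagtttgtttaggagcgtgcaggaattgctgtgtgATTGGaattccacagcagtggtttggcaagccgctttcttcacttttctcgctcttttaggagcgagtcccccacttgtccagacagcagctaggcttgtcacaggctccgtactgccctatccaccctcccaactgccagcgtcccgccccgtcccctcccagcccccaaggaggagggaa
Mgll: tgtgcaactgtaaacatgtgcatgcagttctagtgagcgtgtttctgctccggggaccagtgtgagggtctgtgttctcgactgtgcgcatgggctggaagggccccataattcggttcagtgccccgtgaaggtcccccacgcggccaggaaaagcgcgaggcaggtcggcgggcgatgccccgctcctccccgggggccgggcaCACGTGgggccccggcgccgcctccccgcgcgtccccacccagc
Plin2: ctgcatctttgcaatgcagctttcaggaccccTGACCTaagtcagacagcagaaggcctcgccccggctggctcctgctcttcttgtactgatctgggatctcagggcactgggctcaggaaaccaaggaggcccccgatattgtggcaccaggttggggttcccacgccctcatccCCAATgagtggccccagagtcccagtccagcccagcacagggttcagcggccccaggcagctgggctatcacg
Plin3: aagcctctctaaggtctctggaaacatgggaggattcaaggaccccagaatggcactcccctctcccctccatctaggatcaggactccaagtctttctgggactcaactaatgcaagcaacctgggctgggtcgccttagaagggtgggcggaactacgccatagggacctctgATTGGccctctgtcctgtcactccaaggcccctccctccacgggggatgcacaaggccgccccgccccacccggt
These windows lie at chr8:92855083-92855332 (plus strand), chr9:77917115-77917364 (plus), chr2:164857709-164857958 (minus), chr6:88724162-88724411 (plus), chr4:86670060-86670309 (minus) and chr17:56290512-56290761 (minus), in the order printed. The Plin3 window starts from the RefSeq start, which is inside the longer GENCODE gene model. An E-box is present in the windows of Mgll and Elovl5, which moved in opposite directions in ABCG1KO, and AGGTCA only in that of Plin2 among the 6. RefSeq held 48 windows for 37 of the 43 members, and the first listed is printed where a gene has several; the other Mgll window has no E-box. CACGTG was present in 4 of the 48, or 8.33%, against 6.02% of all 32851 windows of this length. CCAAT was present in 20 of 48, or 41.7%, against 33.8%, and AGGTCA in 8 of 48, or 16.7%, against 14%. A match describes letters in the window and not a bound site.

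In WT the droplet and lipoprotein genes were the most abundant members when counts were set against exon length. That length joins all annotated exons of a gene and can exceed that of a single transcript, so levels compared between genes are approximate. Lpl, the lipase that frees fatty acids from lipoprotein triglyceride, led with a mean of 669 CPM per kb. Plin2, the main droplet coat protein of macrophages, followed at 550 CPM per kb, and Pltp, which moves phospholipid between lipoproteins, at 185 CPM per kb. The lipases Pnpla2 and Mgll were at 83.7 and 73.8 CPM per kb and Plin3 was at 68.0 CPM per kb. Enzymes of synthesis were lower: Acly, which makes cytosolic acetyl-CoA, was at 45.2 CPM per kb, Fasn at 6.15, Acaca at 2.00 and Acacb at 0.107 CPM per kb. The Acaca level is uncertain, because 30.4% of its 50-base stretches also occur at other loci, and the same holds for Me1 at 28.3%. Diacylglycerol acyltransferase was mostly Dgat1, at 6.75 CPM per kb against 0.0944 for Dgat2. Cidec, which enlarges droplets in adipocytes, had no count in any library, and Plin4 had none in WT and at most 7 counts elsewhere, so neither was tested. Abundance of the droplet list therefore came from Plin2 and Plin3.

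Most members were even across the libraries of a group. The ratio of the highest to the lowest library was over 2-fold for 7 of the 41 tested members among WT libraries, for 12 among LysM-DKO and for 6 among ABCG1KO, with medians of 1.38, 1.53 and 1.38. In WT the uneven members included 3 desaturases, which put double bonds into acyl chains. Scd2 was at 302, 196 and 67.2 CPM in WT 1 to 3, Scd1 at 31.8, 27.8 and 5.43 CPM, and Fads2 at 10.5, 7.68 and 1.60 CPM. WT 3 was thus the lowest for all 3 of these genes. Fads1, the delta-5 desaturase, was even in WT at 143, 123 and 112 CPM. The heat map of all members by library shows these differences beside those between genotypes.

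**Figure D1:**
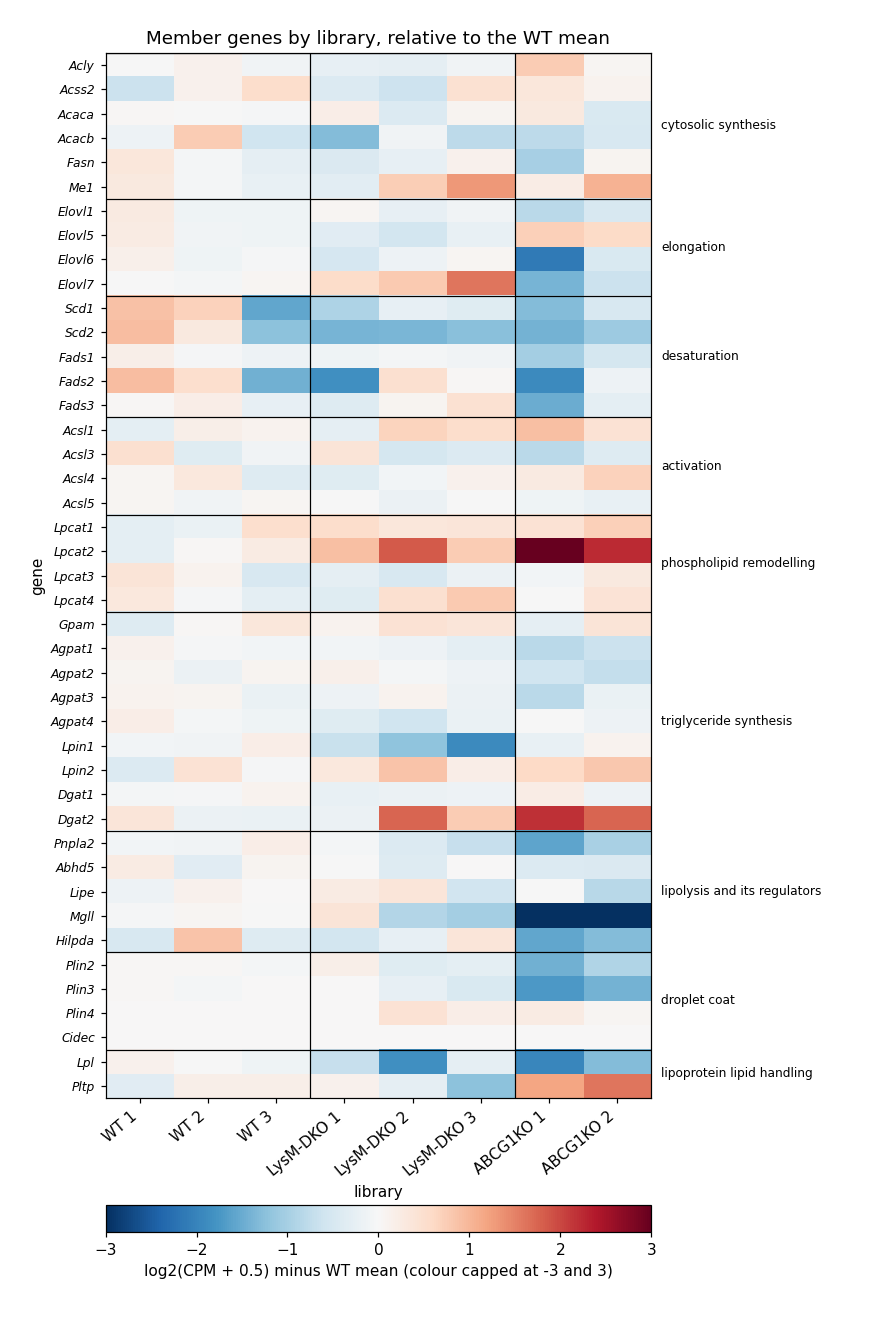
Level of each of the 43 members (rows, grouped by role) in each of the 8 libraries (columns), as log2(CPM + 0.5) minus the mean of the WT libraries, with the colour capped at -3 and 3. Mgll is far below WT and Lpcat2 far above it in both ABCG1KO libraries, and Scd1, Scd2 and Fads2 differ within WT.

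In ABCG1KO the droplet coat genes Plin2 and Plin3 and the lipases Mgll, Pnpla2 and Lpl were lower than in WT, and Lpcat2, which remodels phospholipids, was higher. A gene was called at an adjusted p-value under 0.05, by edgeR's quasi-likelihood test with Benjamini-Hochberg adjustment over all 13821 genes tested. Among the 41 members tested, 3 rose (Lpcat2, Elovl5 and Pltp), a share near the 7.16% of all genes tested that were called higher. A further 9 fell (Mgll, Plin2, Plin3, Pnpla2, Hilpda, Lpl, Fads1, Agpat1 and Agpat2), against 8.75% of all genes. Calls in either direction covered 29.3% of the members, against 15.9% of all genes. The median log2 fold change of the members was -0.38, against 0.01 over all genes. The 2 groups did not overlap for 23 of the 41 members (6 above WT and 17 below), or 56.1%, against 48.2% of all genes. These libraries are bulk RNA, in which fewer cells of a type and less RNA per cell cannot be told apart. Without TMM, with library size alone, the median of all genes moved to 0.25 and the members called were 5 higher and 5 lower, Acly and Dgat2 being called higher.

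Both droplet coat genes tested fell, against 8.75% of all genes called lower. Plin3, a perilipin that also binds newly forming droplets, was at 265, 248 and 260 CPM in WT and at 78.1 and 95.8 CPM in ABCG1KO. The 2 groups lay far apart and each was tight: the level in ABCG1KO was 33.8% of WT (log2 fold change -1.57 ± 0.18 (SE), adjusted p = 0.0012). The call held under every alternative that Plin3 entered. Plin2, which shields stored lipid from lipases, was at 1984, 1966 and 1848 CPM in WT and at 715 and 1035 CPM in ABCG1KO. Its level was 45.3% of WT (log2 fold change -1.14 ± 0.24, adjusted p = 0.0174). That call was lost without ABCG1KO 1 (adjusted p = 0.112) and without WT 2 (0.0511). Summed over the list, droplet coat genes were at 595 to 635 CPM per kb in WT and at 224 and 320 CPM per kb in ABCG1KO.

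Of the 5 genes of lipolysis and its regulators, 3 fell, or 60%, against 8.75% of all genes called lower. Mgll, the lipase that splits monoglycerides in the last step of triglyceride breakdown, was at 363, 389 and 372 CPM in WT and at 2.07 and 13.7 CPM in ABCG1KO, the latter from 66 and 582 counts. This was the largest change of any member tested: ABCG1KO had 2.12% of the WT level (log2 fold change -5.56 ± 0.87, adjusted p = 0.00569). The ABCG1KO libraries differed 6.63-fold between themselves, and the log2 fold change was -4.78 without ABCG1KO 1 and -7.50 without ABCG1KO 2, called in both cases. Pnpla2, the lipase that starts triglyceride breakdown, was at 236, 232 and 290 CPM in WT and at 83.8 and 129 CPM in ABCG1KO. Its log2 fold change was -1.25 ± 0.25 (adjusted p = 0.0151), and -0.98 without ABCG1KO 1, where the call was lost (adjusted p = 0.0897). Hilpda, a droplet protein that inhibits Pnpla2, was at 26.3, 66.4 and 28.1 CPM in WT and at 12.1 and 14.6 CPM in ABCG1KO. The WT libraries were uneven and the call was at the threshold (log2 fold change -1.59 ± 0.45, adjusted p = 0.049). It was lost without any 1 of WT 1 to 3, LysM-DKO 1, LysM-DKO 2, ABCG1KO 1 or ABCG1KO 2 (adjusted p 0.0512 to 0.196), and the log2 fold change was -1.03 without WT 2. Abhd5, the co-activator of Pnpla2, and Lipe, which hydrolyses diglyceride and cholesteryl ester, were not called, with log2 fold changes of -0.44 and -0.38.

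**Figure D2:**
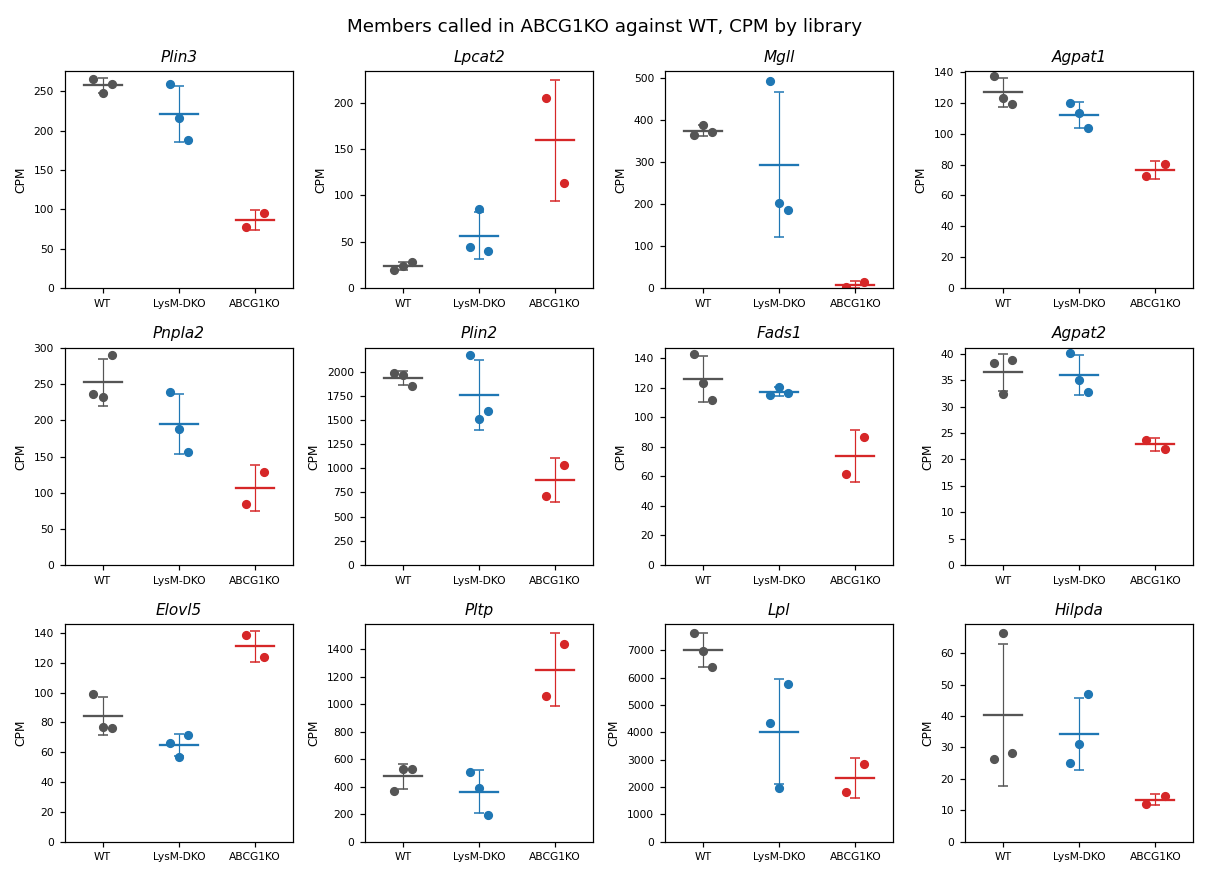
CPM of the 12 members called in ABCG1KO against WT, one panel per gene, with each point a library, each line the group mean and each bar the SD (n = 3, 3 and 2). All ABCG1KO libraries lie outside the WT range in every panel, and the ABCG1KO values of Mgll are 2.07 and 13.7 CPM.

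The 2 genes of lipoprotein lipid went opposite ways. Lpl was at 7650, 6976 and 6397 CPM in WT and at 1806 and 2849 CPM in ABCG1KO (33.2% of WT, log2 fold change -1.59 ± 0.44, adjusted p = 0.044). Pltp was at 368, 528 and 529 CPM in WT and at 1063 and 1437 CPM in ABCG1KO, 2.63-fold higher (log2 fold change 1.40 ± 0.36, adjusted p = 0.0364). For both genes all libraries of the 2 groups were apart, but the calls depended on single libraries. Lpl was not called without any 1 of WT 1 to 3, LysM-DKO 1, ABCG1KO 1 or ABCG1KO 2 (adjusted p 0.0624 to 0.217). Pltp was not called without any 1 of WT 1 to 3, LysM-DKO 2, ABCG1KO 1 or ABCG1KO 2 (adjusted p 0.0526 to 0.132). Exons of Pltp overlap those of Ctsa on the other strand, and those of Mgll, Lpcat2 and Elovl1 overlap Gm26588, Gm45472 and Cdc20 in the same way. The strand setting and annotation of the counting are not given in the sources used here. These levels may therefore lack reads from the overlaps or include reads of the partner.

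Among the 4 acyltransferases that remodel phospholipids, Lpcat2, which also makes platelet-activating factor in inflammatory cells, rose. It was at 19.3, 24.2 and 28.3 CPM in WT and at 205 and 114 CPM in ABCG1KO. The lowest ABCG1KO library was thus well above the highest WT library, and the mean was 6.67-fold higher (log2 fold change 2.74 ± 0.37, adjusted p = 0.00309). The call held under every alternative run. Lpcat1 and Lpcat4 had log2 fold changes of 0.54 and 0.21, and Lpcat3, the LXR target that inserts polyunsaturated chains, of 0.07. None of these 3 was called, so calls covered 25% of the 4 genes, against 15.9% of all genes, a share that rests on 1 gene. Summed over the 4 genes, the level was 28.4 to 32.4 CPM per kb in WT and 84.2 and 63.7 CPM per kb in ABCG1KO. Most of this difference was Lpcat2, with means of 7.05 CPM per kb in WT and 47.1 CPM per kb in ABCG1KO.

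Elongation had 1 called member of 4, or 25%, and desaturation 1 of 5, or 20%. Of all genes, 15.9% were called in either direction. Elovl5, the elongase of polyunsaturated chains, was at 98.9, 77.3 and 76.3 CPM in WT and at 138 and 124 CPM in ABCG1KO, 1.56-fold higher (log2 fold change 0.64 ± 0.16, adjusted p = 0.0342). The call was lost without any 1 of WT 2, WT 3, LysM-DKO 1, ABCG1KO 1 or ABCG1KO 2 (adjusted p 0.057 to 0.175). The other 3 elongases lay below WT in both ABCG1KO libraries without being called. For Elovl1, which lengthens saturated chains, the log2 fold change was -0.65 (adjusted p = 0.0507, and 0.0181 by DESeq2), for Elovl6, which lengthens palmitate, -1.16, and for Elovl7 -1.40. All 5 desaturases had negative log2 fold changes, from -1.51 in Scd2 to -0.77 in Fads1. Fads1 was the one that fell, from 143, 123 and 112 CPM to 61.5 and 86.4 CPM (SE 0.18, adjusted p = 0.0244). It was not called without WT 1, WT 2 or ABCG1KO 1 (adjusted p 0.0621 to 0.132). The stearoyl-CoA desaturases were not called, and the ABCG1KO values of Scd2, 58.6 and 73.9 CPM, spanned that of WT 3 (67.2 CPM). Scd2 was called lower by DESeq2 (adjusted p = 0.0103) and by edgeR without WT 3 (log2 fold change -1.91, adjusted p = 0.00447), as was Scd1 without WT 3 (-1.67, adjusted p = 0.033).

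In triglyceride synthesis, 2 of 9 members fell, or 22.2%, against 8.75% of all genes called lower. That share rests on few genes. Agpat1 and Agpat2, which add the second acyl chain to the glycerol backbone, were the pair. Agpat1 was at 137, 123 and 119 CPM in WT and at 72.5 and 80.4 CPM in ABCG1KO (log2 fold change -0.73 ± 0.13, adjusted p = 0.0108, and 0.0772 without ABCG1KO 1). Agpat2 was at 38.3, 32.4 and 38.8 CPM in WT and at 23.8 and 22.0 CPM in ABCG1KO (log2 fold change -0.68 ± 0.16, adjusted p = 0.0251). Both genes were at about 60% of WT, 60.4% and 62.6%. Agpat2 was not called without any 1 of WT 1, WT 3, ABCG1KO 1 or ABCG1KO 2 (adjusted p 0.0613 to 0.0899). Dgat2, which makes triglyceride, was at 0.498, 0.193 and 0.181 CPM in WT and at 3.04 and 2.10 CPM in ABCG1KO, but was not called (log2 fold change 3.13, adjusted p = 0.0546). It was called by DESeq2 (adjusted p = 0.00851), in a fit of ABCG1KO and WT alone (0.0325) and without LysM-DKO 1 (0.0267) or LysM-DKO 2 (0.0456). Gpam, Agpat3, Agpat4, Lpin1, Lpin2 and Dgat1 were not called, with log2 fold changes of -0.48 to 0.66. Agpat1 and Agpat2 overlap Egfl8 and Egfl7 on the other strand.

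None of the 6 genes of cytosolic synthesis and none of the 4 acyl-CoA synthetases was called, against 15.9% of all genes. With so few genes, a lack of calls does not set these roles apart from that share. Acly was at 235, 259 and 222 CPM in WT and at 401 and 247 CPM in ABCG1KO. Its log2 fold change was 0.44 (adjusted p = 0.178), and 0.74 without ABCG1KO 2, which lay inside the WT range. Fasn, which assembles palmitate, was at 83.5, 63.9 and 54.5 CPM in WT and at 33.0 and 70.6 CPM in ABCG1KO, so that the 2 ABCG1KO libraries lay on opposite sides of WT 2. The acyl-CoA synthetases Acsl1, Acsl3, Acsl4 and Acsl5 had log2 fold changes of 0.67, -0.64, 0.47 and -0.17. The summed synthetase level was 62.3 to 68.6 CPM per kb in WT and 69.3 and 73.9 CPM per kb in ABCG1KO.

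**Figure D3:**
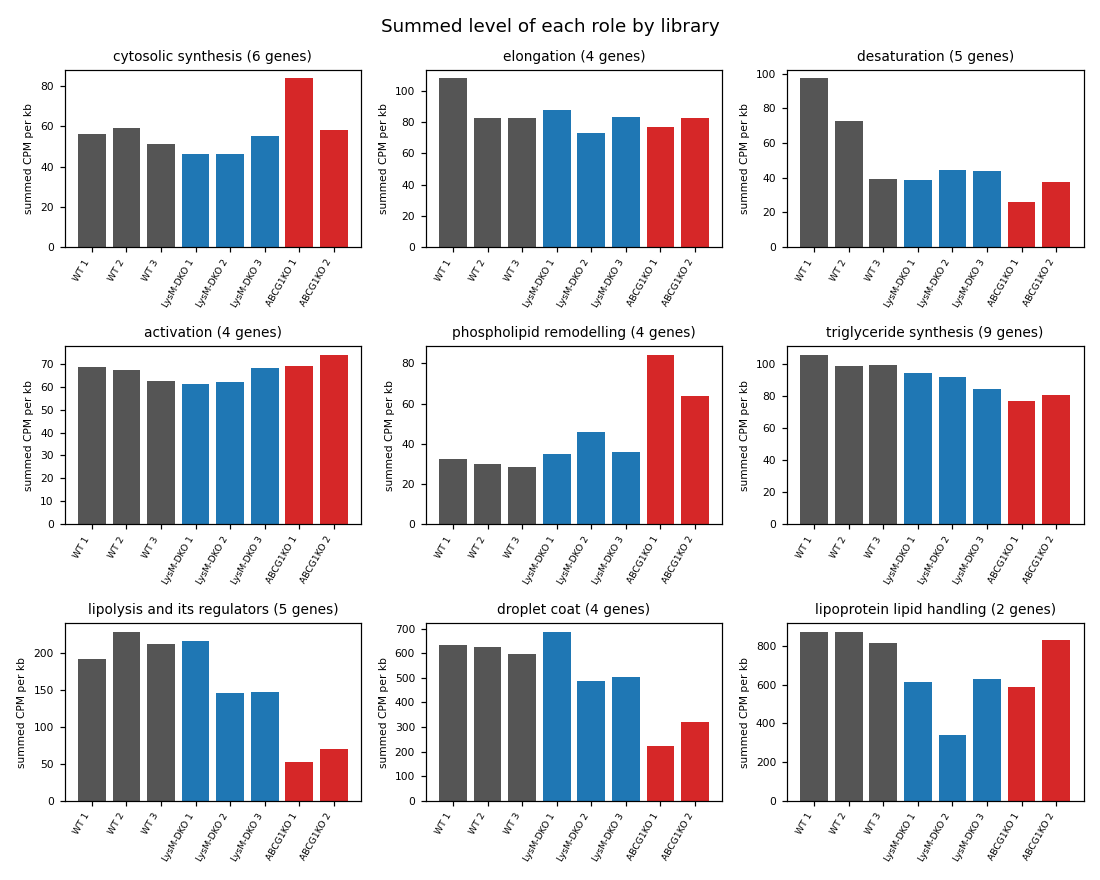
Summed level of each of 9 roles in CPM per kb of exon, with one bar per library and the number of genes in each panel title. The droplet coat and lipolysis sums are lower in both ABCG1KO libraries than in any WT or LysM-DKO library. The phospholipid remodelling sum is higher, mostly through Lpcat2.

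The sex of the library bears on this comparison. A fit with sex as a term rests on LysM-DKO 1, the only library that carries Y transcripts without the ABCG1KO label. In that fit 5 of the 12 members were called: Mgll (log2 fold change -6.90, adjusted p = 0.0146), Plin3 (-1.93, 0.0089), Lpcat2 (3.24, 0.045), Plin2 (-1.63, 0.0479) and Pnpla2 (-1.72, 0.0494). The log2 fold change of Pltp went from 1.40 to 0.60 and that of Hilpda from -1.59 to -0.95. When the fit was limited to genes with under 1% of sequence shared with other loci, 33 members remained, and 7 were called. Of all 10541 genes in that fit, 1190 were called. Plin2, Plin3 and Lpl share 2.57%, 1.20% and 1.40% of their sequence with other loci and did not enter that fit. Without ABCG1KO 1, whose depth was the lowest, 3 of the 12 were called (Plin3, Lpcat2 and Mgll). The remaining ABCG1KO library was then assumed to vary like the other groups.

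In LysM-DKO no member was called against WT, where 0.00724% of all genes tested were called higher and 0.0145% lower. At an unadjusted p under 0.05 there were 6 of the 41 members, against 1616 of all 13821 genes, and DESeq2 called 3 (Lpin1, Lpcat2 and Scd2), against 2.21% of genes by that tool. Of the 41 members, 11 had a positive and 30 a negative log2 fold change, with a median of -0.18 against 0.02 over all genes. With library size alone these medians were -0.02 and 0.17. The groups did not overlap for 8 members, or 19.5%, against 21.0% of all genes, a share near that background. The 6 members with the smallest p follow, and none of them passed the threshold in the quasi-likelihood test under any alternative.

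Lpin1, the phosphatidate phosphatase that makes diacylglycerol and also acts as a transcriptional co-regulator, was at 65.4, 64.3 and 80.7 CPM in WT and at 43.8, 30.2 and 18.3 CPM in LysM-DKO. All LysM-DKO libraries were below all WT libraries, at 43.8% of the WT level (log2 fold change -1.19 ± 0.29, adjusted p = 0.287, and 0.00893 by DESeq2). Both ABCG1KO libraries, at 59.9 and 75.2 CPM, lay near WT. Lpcat2 was at 44.5, 85.4 and 40.2 CPM in LysM-DKO, each above the highest WT library (28.3 CPM). Its log2 fold change was 1.25 ± 0.34 (adjusted p = 0.345, and 0.0211 by DESeq2), so that it lay above WT in both knockouts. Scd2, a stearoyl-CoA desaturase, was at 59.6, 61.3 and 65.8 CPM in LysM-DKO. These values lay close together just below WT 3 at 67.2 CPM and far below WT 1 and WT 2 (log2 fold change -1.60 ± 0.45, adjusted p = 0.345, and 0.0124 by DESeq2).

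Elovl7, a low-level elongase of long chains, was at 1.79, 1.71 and 1.89 CPM in WT and at 2.88, 3.46 and 6.45 CPM in LysM-DKO. The groups did not overlap (log2 fold change 1.25 ± 0.47, adjusted p = 0.387). Elovl5 was at 66.1, 57.1 and 71.4 CPM in LysM-DKO, below all WT libraries (log2 fold change -0.38 ± 0.15, adjusted p = 0.4). Agpat4, an acyltransferase of the glycerol backbone, was at 42.0, 34.8 and 33.3 CPM in WT and at 28.2, 23.8 and 31.9 CPM in LysM-DKO (log2 fold change -0.39 ± 0.16, adjusted p = 0.405). Lpl and Dgat1 also lay below WT in all LysM-DKO libraries, with adjusted p of 0.448 and 0.635. Lpl was the more uneven of the 2, at 4345, 1967 and 5785 CPM in LysM-DKO. Of the droplet coat genes, Plin2 was at 2172, 1505 and 1589 CPM and Plin3 at 260, 216 and 188 CPM in LysM-DKO. Neither was called (log2 fold changes -0.14 and -0.22). LysM-DKO 2 and 3 lay below every WT library for both genes, and LysM-DKO 1 did not. The WT libraries were at 1848 to 1984 CPM for Plin2 and 248 to 265 CPM for Plin3.

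**Figure D4:**
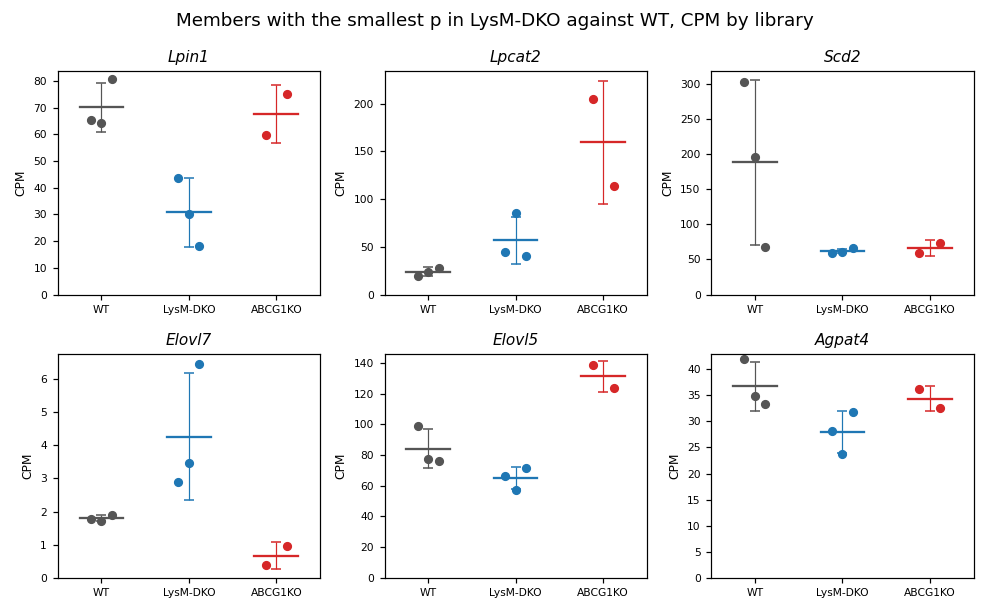
CPM of the 6 members with the smallest p in LysM-DKO against WT, one panel per gene, with each point a library, each line the group mean and each bar the SD (n = 3, 3 and 2). The LysM-DKO and WT libraries do not overlap in any of the 6 panels, and none of the 6 passed the adjusted threshold. The 6 were chosen by p in this comparison. Over all members tested 19.5% did not overlap, against 21.0% of all genes.

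LysM-DKO 1 carries Y transcripts and the other LysM-DKO libraries do not. It had the highest LysM-DKO level of Mgll, at 492 CPM against 203 and 185 CPM, and of Plin2, Plin3, Pnpla2 and Pltp. Whether sex or another property of that library goes with these levels was not tested. Without LysM-DKO 1, when all libraries compared carried Xist, again no member was called. In that fit the log2 fold change was -1.55 for Lpin1 (adjusted p = 0.193) and 1.38 for Lpcat2 (adjusted p = 0.392).

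LysM-DKO and ABCG1KO were also set against each other. Here too genotype and the differences that set both ABCG1KO libraries apart cannot be told apart, and 1 of the 3 LysM-DKO libraries carried Y transcripts against both ABCG1KO libraries. ABCG1KO libraries are shared with the ABCG1KO against WT comparison, and LysM-DKO libraries with the LysM-DKO against WT comparison. Of 41 members, 7 were higher in LysM-DKO (Mgll, Plin2, Plin3, Agpat1, Agpat2, Fads1 and Elovl7), against 7.72% of all genes tested, and 4 were lower (Lpcat2, Elovl5, Pltp and Lpin1), against 5.80%. The median log2 fold change was 0.19, against 0.03 over all genes. Groups did not overlap for 21 members, or 51.2%, against 48.2% of all genes.

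Mgll was 36.9-fold higher in LysM-DKO (log2 fold change 5.20 ± 0.86, adjusted p = 0.00812). The log2 fold change was 4.58 without LysM-DKO 1, 4.41 without ABCG1KO 1 and 7.15 without ABCG1KO 2, called each time. Plin3 was 2.54-fold higher (log2 fold change 1.35 ± 0.18, adjusted p = 0.00291). These 2 calls held under every alternative that the gene entered. Plin2 was 2.01-fold higher (log2 fold change 1.00 ± 0.24, adjusted p = 0.0306), and was not called without WT 2, LysM-DKO 1 or ABCG1KO 1 (adjusted p 0.0588 to 0.199). Plin2, Plin3 and Mgll thus separated ABCG1KO from LysM-DKO as well as from WT.

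Elovl5 was lower in LysM-DKO than in ABCG1KO, at 49.5% of its level (log2 fold change -1.02 ± 0.16, adjusted p = 0.00737, and 0.0591 without ABCG1KO 1). Lpcat2 was at 35.6% (log2 fold change -1.49 ± 0.37, adjusted p = 0.0347), although LysM-DKO lay above WT. It was not called without WT 2, LysM-DKO 1, LysM-DKO 3 or ABCG1KO 1 (adjusted p 0.0532 to 0.205). Pltp was at 29.2% (log2 fold change -1.78 ± 0.36, adjusted p = 0.0187), and was not called without ABCG1KO 1 (0.0533) or ABCG1KO 2 (0.06). Lpin1 was at 45.5% (log2 fold change -1.13 ± 0.31, adjusted p = 0.0491). Its LysM-DKO libraries, at 18.3 to 43.8 CPM, lay below every library of both other groups. The call was lost when any 1 library other than LysM-DKO 1 was left out (adjusted p 0.057 to 0.146).

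Elovl7 was 6.28-fold higher in LysM-DKO, which was 2.88 to 6.45 CPM against 0.376 and 0.967 CPM in ABCG1KO (log2 fold change 2.65 ± 0.58, adjusted p = 0.0239). It was not called without LysM-DKO 3 (0.0502) or ABCG1KO 1 (0.127), and the log2 fold change was 3.50 without ABCG1KO 2. The libraries of the 2 knockouts lay on opposite sides of WT for this elongase, LysM-DKO above and ABCG1KO below. Neither difference from WT was called (adjusted p = 0.387 and 0.123 by edgeR), and the ABCG1KO values came from 12 and 41 counts. Agpat1, Agpat2 and Fads1 were 1.47-fold, 1.57-fold and 1.59-fold higher in LysM-DKO, with adjusted p of 0.0329, 0.0323 and 0.044. Agpat1 was not called without WT 2, LysM-DKO 1, LysM-DKO 2, ABCG1KO 1 or ABCG1KO 2 (adjusted p 0.0518 to 0.2). Agpat2 was not called without WT 3, LysM-DKO 1, LysM-DKO 2, ABCG1KO 1 or ABCG1KO 2 (0.0504 to 0.131). Fads1 was not called without WT 2, WT 3, any LysM-DKO library or ABCG1KO 1 (0.056 to 0.254). With sex as a term, Mgll, Plin2 and Plin3 were the members called.

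**Figure D5:**
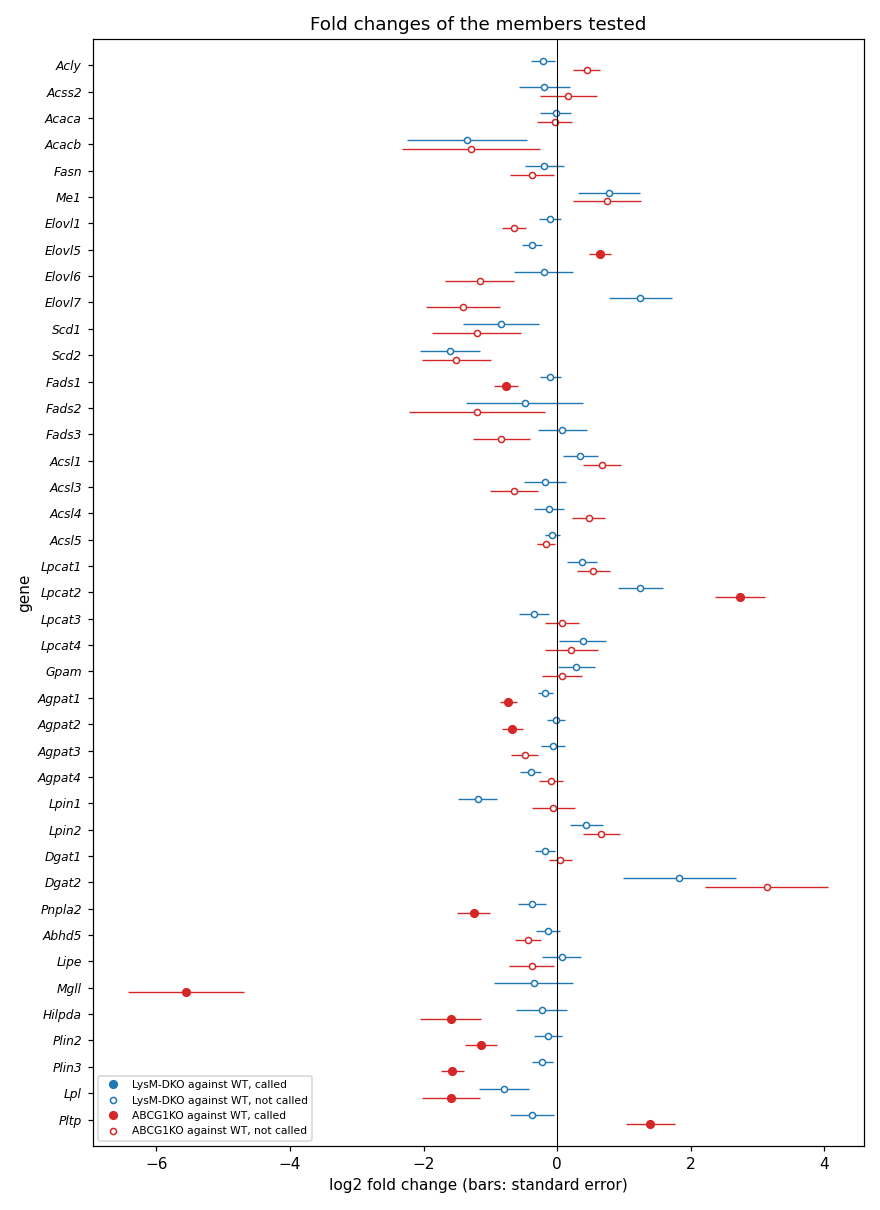
Log2 fold change of each of the 41 tested members in LysM-DKO against WT (blue) and ABCG1KO against WT (red), with bars of 1 SE and filled points for calls. Mgll at -5.56 and Lpcat2 at 2.74 are the outermost called members, and no LysM-DKO point is filled.

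Genes that act beside the members were counted by list. In LysM-DKO against WT none was called in any of the 5 lists. Of 19 transcriptional regulators tested, 5 rose and 2 fell in ABCG1KO against WT, or 36.8%, against 15.9% of all genes called in either direction. Among them, the receptor partner Rxra was at 151 to 181 CPM in WT and at 304 and 340 CPM in ABCG1KO (log2 fold change 0.96), and Cebpa at 228 to 372 CPM against 1360 and 692 CPM (1.84). Pparg, a lipid-sensing receptor known to act on Plin2, Lpl and Fabp4, was at 74.2 to 106 CPM in WT and at 25.6 and 28.6 CPM in ABCG1KO (log2 fold change -1.74 ± 0.35, adjusted p = 0.0151). Its co-activator Ppargc1a was at 0.938 to 2.02 CPM in WT and had 1 and 0 counts in ABCG1KO. Srebf1 and Nr1h3, which encode SREBP1 and LXR alpha, were not called, with log2 fold changes of 0.17 and -0.58. LysM-DKO against ABCG1KO had 3 regulators higher and 5 lower, or 42.1%, against 13.5% of all genes, with Pparg higher (log2 fold change 1.49).

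In the other lists the calls in ABCG1KO against WT were all downward, and the counts stand against 8.75% of all genes called lower. Of 14 genes of fatty acid uptake and carriage, 4 fell, or 28.6%. Among them were the fatty acid binding proteins Fabp5 (log2 fold change -1.84) and Fabp4 (-1.19) and the transporter Slc27a1 (-0.97). Fabp5 shares 5.48% of its sequence with other loci. Of 19 other enzymes of acyl chain synthesis, 4 fell, or 21.1% (Hacd2, Tecr, Hacd1 and Acss1, log2 fold changes -1.34 to -0.82), the first 3 being partners of the elongases and sharing 6.18% to 26.9% of their sequence with other loci. Of 22 other glycerolipid enzymes, 2 fell, or 9.09%, a share near that of all genes: Ppap2b, a lipid phosphate phosphatase, at 105 to 125 CPM in WT and 9.47 and 22.0 CPM in ABCG1KO (log2 fold change -2.85), and Mboat7 (-0.73). No gene was called among 14 other droplet and lipolysis genes, of which 3 had an unadjusted p under 0.05, against 4382 of all 13821 genes. LysM-DKO against ABCG1KO had 2 genes higher in the uptake list, 3 in the acyl chain list, 2 in the glycerolipid list and 3 in the droplet list, with none lower. These are 14.3%, 15.8%, 9.09% and 21.4% of the lists, against 7.72% of all genes called higher.

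Markers of macrophages and of other cell types were read in every library. All 8 macrophage markers were present in each library. In ABCG1KO, Adgre1, Csf1r and Cd14 were higher than in WT (log2 fold changes 1.21, 1.19 and 1.87) and Cd68 was lower (-1.06), beside the lower Plin2, Plin3 and Mgll. Calls in either direction covered 50% of the 8 macrophage markers, against 15.9% of all genes. Among 10 adipocyte markers, 4 had no count in any library, and Plin1 and Lep were among them. Adipoq was at no more than 0.0293 CPM, so nearly all of the adipocyte sum (359 to 505 CPM in WT, 197 and 198 CPM in ABCG1KO) was Fabp4, which macrophages express too. B cell markers summed to 7.12, 30.3 and 2.51 CPM in WT, to 0.0242, 1.36 and 1.40 CPM in LysM-DKO and to 15.1 and 2.64 CPM in ABCG1KO. Of these 5 markers 4 had an unadjusted p under 0.05 in LysM-DKO against WT, against 1616 of all 13821 genes, and none was called. T cell markers summed to 1.77 to 6.65 CPM and neutrophil markers to 0.824 to 6.02 CPM over all libraries. Mast cell markers summed to 0.121 to 3.15 CPM in WT and LysM-DKO and to 47.3 and 8.07 CPM in ABCG1KO. In LysM-DKO against ABCG1KO all 4 mast cell markers tested were lower, and of the 8 macrophage markers 1 was higher and 4 were lower. Of all genes tested, 7.72% were called higher and 5.80% lower in that comparison. Fibroblast and mesothelial markers summed to 680 to 1696 CPM in WT and LysM-DKO, and to 164 and 1194 CPM in ABCG1KO. The part of other cell types in the members' levels was not tested.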

How the data were processed

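The authors deposited raw read counts per gene symbol, 1 file per library, counted with HTSeq 0.11.2, per the submitters' processing notes, which also name STAR 2.7.9a, TopHat, DESeq2 1.30.1, limma and mm10 without a role or order. The strand setting and annotation are not given in the sources used here. The 5 summary lines of each file entered neither the sizes nor the fits. Counts were fitted with edgeR 4.0.16 in R 4.3.3: filterByExpr kept 13821 genes, sizes were scaled with TMM, and 1 quasi-likelihood fit over all 8 libraries held a term per group and no covariate. The 3 pairwise contrasts were tested by the F test, with Benjamini-Hochberg adjustment over all genes and a threshold of 0.05. Residual degrees of freedom were 5, and the median prior was 3.23. Groups came from the titles and genotypes in the labels. Exon lengths and shared 50-base stretches came from GENCODE gene models on GRCm38.

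The members, lists and tests were chosen with earlier results of these data known. All members may be named, with statistics for those called or, below 6 calls, the 6 with the smallest p. From each other list at most 4 called genes are named, by adjusted p, and Srebf1, Nr1h3, Mlxipl and markers beyond these were named after their values were seen. Simulated data were drawn in 2 simulations per fold, with fewer genes changed than were called in ABCG1KO against WT. On them, the fit recovered 67.2% of genes changed 4-fold and 0.259% of those changed 2-fold in ABCG1KO against WT (13300 and 13290 genes tested). For LysM-DKO against WT it recovered 73.2% and 4.16% (13300 and 13280 genes). Alternatives were RLE factors, library size only, no filter, at least 10 counts in every library, DESeq2 1.42.0, fits of 2 groups, a replicate block and leaving out each library. Fits with sex as a term and with genes of under 1% shared sequence were chosen after seeing the data. The limit of 3 counts covers counting error only, since the sources used here record no molecular identifiers.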

Additional observations from a re-analysis of the deposited data

How the results depend on the processing

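For the 6 members described with SE and test in LysM-DKO against WT, the 12 in ABCG1KO against WT and the 11 in LysM-DKO against ABCG1KO, no log2 fold change changed sign under the alternatives run. In LysM-DKO against WT, no member was called in any quasi-likelihood fit, and DESeq2 called 3. In ABCG1KO against WT, where 12 members were called, 7 were called with the replicate block, 7 among genes with under 1% shared sequence and 5 with sex as a term. Leaving out 1 library gave 3 (without ABCG1KO 1) to 12 calls. In LysM-DKO against ABCG1KO, where 11 members were called, 3 were called in a fit of those 2 groups alone, 3 with the replicate block, 7 among genes with under 1% shared sequence and 3 with sex as a term. Leaving out 1 library gave 2 (without ABCG1KO 1) to 11 calls. Calls that held under all alternatives the gene entered were Plin3, Lpcat2 and Mgll in ABCG1KO against WT and Plin3 and Mgll in LysM-DKO against ABCG1KO. Plin3 did not enter the fit of genes with under 1% shared sequence. In ABCG1KO against WT, the replicate block lost the calls of Fads1, Elovl5, Pltp, Lpl and Hilpda. The fit of ABCG1KO and WT alone lost Fads1, Agpat2, Elovl5 and Hilpda, and library size alone lost Fads1, Agpat2, Lpl and Hilpda. The cause of these changes was not tested, except that fewer genes or libraries enter some fits. Over all genes, calls in the 3 comparisons in the order above were 3, 2199 and 1869, with the replicate block 0, 1448 and 1033, with sex as a term 2, 500 and 725, and by DESeq2 299, 3239 and 2982.

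Same-numbered libraries did not deviate together in every pair (correlations of deviations 0.03, 0.48 and -0.05 for WT and LysM-DKO, -0.05 and -0.03 for WT and ABCG1KO, 0.22 and -0.11 for LysM-DKO and ABCG1KO), so the numbers were not taken as pairs. At this depth and number of libraries, 2-fold changes were mostly not recovered in simulated data. Fewer genes were changed there than were called in ABCG1KO against WT, so the recovery may not describe that comparison. In it, Elovl5 was called at 1.56-fold. A member not called may still differ.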

Other observations

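Several members differed between the 2 ABCG1KO libraries beside the markers of other cell types. In ABCG1KO 1 and ABCG1KO 2, Elovl6 was at 1.47 and 5.73 CPM, Fads2 at 1.03 and 4.67 CPM, Fads3 at 3.14 and 7.78 CPM, and Fasn at 33.0 and 70.6 CPM. These 4 were lower in ABCG1KO 1. Mgll showed the same order, at 2.07 and 13.7 CPM. The summed fibroblast and mesothelial markers were 164 and 1194 CPM, and the summed mast cell markers 47.3 and 8.07 CPM. The opposite order held for Acly (401 and 247 CPM), Acaca (41.9 and 24.6 CPM), Acss2 (13.9 and 11.7 CPM), Elovl5 (138 and 124 CPM) and Lpcat2 (205 and 114 CPM). The genes were picked after their values were seen, and no test was run on them.

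The regulator Mlxipl, which encodes ChREBP, was at 0.147, 0.359 and 0.0259 CPM in WT. The LysM-DKO libraries held 0, 0.829 and 0.025 CPM, whereas ABCG1KO 1 and 2 held 45.8 and 9.76 CPM. Its log2 fold change in ABCG1KO against WT was 7.28 ± 1.54 (adjusted p = 0.0182 by edgeR).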
